A study of Homo sapiens with 39 samples.

Results

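OCI-AML3 is an established human acute myeloid leukemia (AML) cell line, known for a mutation of the nucleolar protein gene NPM1 and one of the DNA methyltransferase gene DNMT3A. The response described here is the difference in mRNA level between OCI-AML3 cells exposed to tamibarotene and OCI-AML3 cells exposed to the vehicle, DMSO. Tamibarotene (SY-1425) is a synthetic retinoid that activates the retinoic acid receptor alpha. The arrays were chosen by the cell line and treatment in their labels: 3 tamibarotene arrays and 3 vehicle arrays, 6 of the 39 arrays in the series. Of 49395 probe sets, the 44988 that name a single gene symbol were used, and they stand for 18132 genes. The other 33 arrays hold the same 2 treatments in 6 further AML lines (Sig-M5, OCI-M1, KG-1a, NOMO-1, MV-4-11 and Kasumi-1). Treatment lasted 24 h in both groups, and the labels give 100 nM as the concentration added and 50 nM as the final one. Both groups are cultures of 1 line, and nothing in the labels says whether replicates were separate cultures. The p-values rest on the spread within all 14 groups of line and treatment in the series, not on the OCI-AML3 arrays alone. That spread may be technical.

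Retinoic acid acts through nuclear receptors, RARA, RARB and RARG, which bind DNA as partners of the retinoid X receptors and switch from repressors to activators when a ligand binds. Among the genes they induce are the CYP26 hydroxylases, which clear retinoic acid, and DHRS3, which turns its precursor retinaldehyde back to retinol. The response to retinoic acid is thus known to carry its own brake. Whether these enzymes limit the action of tamibarotene was not tested here. In myeloid cells the same receptors drive the granulocyte program, and their ligands are used to treat acute promyelocytic leukemia.

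Levels are log2 values of fluorescence intensity, with a median of 5.11 and quartiles of 3.53 and 7.24 over all probe set values of the 6 arrays. Changes are log2 differences, tamibarotene minus vehicle, with their standard error (SE) from limma. P-values are limma's, adjusted by Benjamini-Hochberg over all 18132 genes, with 0.05 as the limit for a call. Array medians lay between 5.06 and 5.13, and the 3' minus 5' difference of beta-actin, which grows as RNA degrades, lay between -0.02 and 0.12. Vehicle replicate 2 stood apart: 574 genes were lower there by 1 or more on the log2 scale than on the mean of the other 2 vehicle arrays, and 2 genes were higher. Among those genes were PHF3, OSBPL8 and STAG2, lower by 2.33, 2.33 and 2.30. On every other OCI-AML3 array at most 3 genes lay that far below the mean of the other 2 arrays of its group, and vehicle replicate 3 had 270 genes that far above. Counts of called genes, of genes differing from the other lines and of members of the main gene lists are also given without vehicle replicate 2 where they changed. Counts of 2-fold changes, separate groups, probe sets, promoters and calls shared with other lines rest on all arrays. So do the split of the differing genes by direction and the further gene groups among the other observations. Whether these counts change without vehicle replicate 2 was not tested. The line expressed myeloid genes, though not all at a high level. The myeloid transcription factor CEBPA averaged 12.04 ± 0.14 in tamibarotene cells and 11.78 ± 0.09 in vehicle cells (SD, n = 3 each). PTPRC, the common leukocyte antigen CD45, averaged 7.80 ± 0.33 and 7.46 ± 0.85, in the same order. The myeloid genes LYZ, ANPEP and SPI1 averaged 11.48, 7.25 and 6.3 in tamibarotene cells and 12.18, 6.80 and 6.4 in vehicle cells. The myeloid peroxidase gene MPO, at 4.90 and 5.05, lay below the median gene (5.65 and 5.62). None of 14 markers of adherent cells lay above the median gene. In bulk RNA, fewer cells of a type and less RNA per cell cannot be told apart.

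Of 18132 genes, 997 (5.50%) were higher and 1153 (6.36%) lower in tamibarotene cells than in vehicle cells. The called genes together make 11.9% of those tested, and 3639 genes had an unadjusted p under 0.05. At least 2-fold, 264 genes rose and 90 fell. The median change of all genes was -0.03. The 3 tamibarotene values did not overlap the 3 vehicle values for 2129 of the 2150 called genes, against 30.7% of all genes. Without vehicle replicate 2, 962 genes were higher and 893 lower.

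DHRS3 and CYP26A1, enzymes that limit retinoic acid, were among the 3 largest rises in the line. DHRS3, which reduces retinaldehyde to retinol, had levels of 11.39, 11.36 and 11.37 on the tamibarotene arrays and 5.40, 4.72 and 4.52 on the vehicle arrays. CYP26A1, the hydroxylase that clears retinoic acid, had levels of 9.28, 9.22 and 9.30 on the tamibarotene arrays, against 3.63, 3.08 and 3.18 on the vehicle arrays. Both genes lay below the array median in vehicle cells, except for 1 DHRS3 value, and above the upper quartile in tamibarotene cells, with no overlap. The log2 change was 6.49 for DHRS3 (SE 0.17, adjusted p = 4.82e-23, 89.9-fold) and 5.97 for CYP26A1 (SE 0.15, adjusted p = 2.72e-23, 62.6-fold). The other DHRS3 probe sets changed by 5.57 and 1.89. The mean vehicle level of CYP26A1 lay below the lower quartile of the arrays, where background can understate a fold change.

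CYP26B1, the second CYP26 hydroxylase, and RARB, a receptor gene that retinoic acid is known to induce, were split between probe sets. Each gene is represented by its brightest probe set, judged by the mean level over the 39 arrays, and by that probe set neither gene passed (0.14, adjusted p = 0.674, and -0.26, adjusted p = 0.177). The second CYP26B1 probe set gave 6.61, 6.70 and 6.56 in tamibarotene cells and 3.20, 3.18 and 3.28 in vehicle cells. That is a log2 change of 3.40 (10.6-fold, limma adjusted p = 1.31e-18 over all single-symbol probe sets). The probe set that stood for the gene lay at 5.08, 5.37 and 5.24 in tamibarotene cells and 5.08, 5.12 and 5.05 in vehicle cells, so only the second probe set separated the groups. For RARB, 1 probe set gave 5.61, 5.44 and 5.60 in tamibarotene cells and 3.86, 3.97 and 3.91 in vehicle cells, and another gave 5.05, 4.51 and 4.80 and 3.41, 3.37 and 3.30, in the same order. Their log2 changes were 1.64 (SE 0.14, limma adjusted p = 3.01e-10 over probe sets) and 1.43 (SE 0.14, limma adjusted p = 5.01e-09). The third, which stood for the gene, lay at 4.03, 4.44 and 4.23 in tamibarotene cells and 4.28, 4.58 and 4.63 in vehicle cells, and those values overlap. With the mean of all its probe sets in place of 1, RARB changed by 0.93 and passed (limma adjusted p = 2.90e-10).

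**Figure D1:**
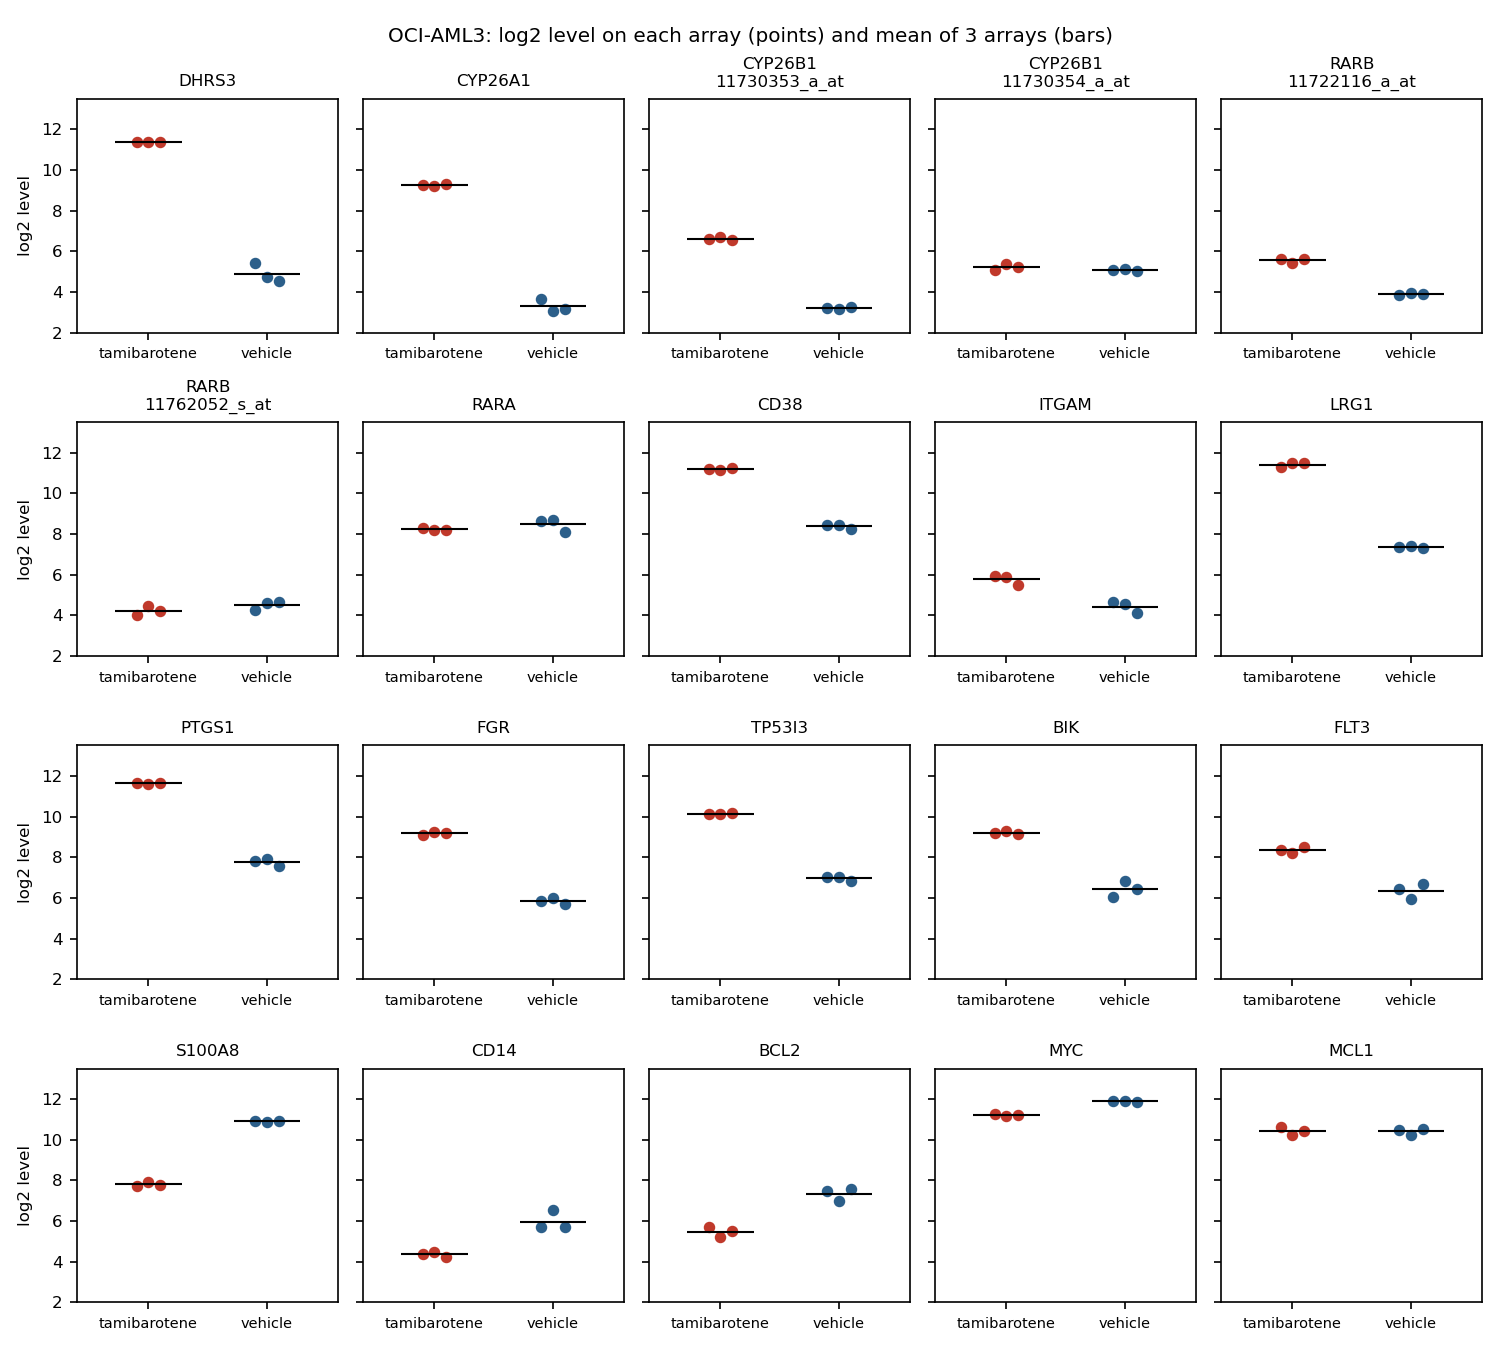
Log2 level of 18 genes on each of the 6 OCI-AML3 arrays (points, tamibarotene left of vehicle) with the mean of the 3 arrays of a group (bars). CYP26B1 and RARB are each shown by 2 probe sets, of which 1 differs between the groups and 1 does not, and the tamibarotene points of DHRS3 lie 6.49 above those of vehicle on average.

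The DNA letters that a retinoic acid receptor pair is known to bind were looked for in the RefSeq promoters of assembly GRCh38.p14, each 250 bases before to 50 after a transcript start. A half-site was AGGTCA or AGTTCA or GGGTCA or GGTTCA, and 2 half-sites in the same direction with any 5 bases between them were searched on both strands. This repeat was present in 31 of 35116 promoters (0.0883%), in 4 of 1194 promoters of genes called higher (0.335%) and in none of 1370 promoters of genes called lower. The 4 genes, named here for their repeat, were CYP26A1, BATF2, TRIM31 and CFLAR. BATF2, a leucine zipper factor induced by interferon, rose by 2.33. Of the 15 largest rises in the line 11 have a promoter in the table, and CYP26A1 was the only one of these 11 with the repeat. The stretches of CYP26A1 and RARB are shown because both repeats stand beside a start of a gene with a probe set that rose, although RARB is counted as uncalled by the probe set that stands for it. Both are printed 5′ to 3′ on the transcript's strand, the plus strand, with the repeat in capitals.
CYP26A1, chr10:93073797-93073826: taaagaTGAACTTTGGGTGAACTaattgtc
RARB, chr3:25428204-25428233: gggtagGGTTCACCGAAAGTTCActcgcat
The CYP26A1 repeat reads on the opposite strand and spans the bases 90 to 74 before the start, and the RARB repeat reads on the transcript's strand, 53 to 37 bases before it. A match of letters is no measure of binding. The shorter spacers of 1 and 2 bases were found in 0.131% and 0.0399% of promoters and in none of the 1194 of genes called higher.

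Of the 21 measured members of the retinoid metabolism list, 3 rose and 2 fell by the probe set that stands for each gene. These are 14.3% and 9.52%, beside 5.50% of all genes called higher and 6.36% called lower. The same 2 shares are the background for every list count below. STRA6, the cell-surface receptor for retinol-carrying protein, had 7.49, 7.44 and 7.79 in tamibarotene cells and 6.69, 6.53 and 6.53 in vehicle cells (0.99, SE 0.15, adjusted p = 1.25e-05). ALDH1A1, which makes retinoic acid from retinaldehyde, had 4.93, 4.95 and 4.60 in tamibarotene cells and 6.26, 6.43 and 6.14 in vehicle cells. It changed by -1.45 (SE 0.15, adjusted p = 1.88e-08). RDH10, which oxidizes retinol in the step before, changed by -0.65 (adjusted p = 0.00376). These 2 enzymes of retinoic acid synthesis were lower in tamibarotene cells, while DHRS3 and CYP26A1 were higher. The other RDH10 probe sets changed by -0.45 each and did not pass. The list median was -0.01, beside -0.03 over all genes.

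Among 21 nuclear receptors and cofactors 1 rose (4.76%, near the 5.50% of all genes) and 3 fell (14.3%, beside 6.36%). The receptor tamibarotene binds, RARA, had levels of 8.30, 8.19 and 8.20 in tamibarotene cells and 8.65, 8.70 and 8.10 in vehicle cells, which overlap, and did not pass (-0.25, SE 0.16, adjusted p = 0.454). RARG was measured at 7.66 ± 0.08 in tamibarotene cells and 7.63 ± 0.04 in vehicle cells (SD, n = 3 each, 0.04, limma adjusted p = 0.932). The partner receptor RXRA had 8.79, 9.04 and 8.76 in tamibarotene cells and 9.70, 9.77 and 9.67 in vehicle cells and changed by -0.85 (SE 0.13, adjusted p = 2.01e-05), while RXRB lay at 0.14 (adjusted p = 0.626). VDR, the vitamin D receptor, changed by -0.96 (adjusted p = 1.90e-07) and TBL1X, a subunit of the corepressor complex, by -1.11 (adjusted p = 1.29e-07). PPARG, a lipid-sensing receptor, was the member that rose, with 6.36, 6.26 and 6.46 in tamibarotene cells and 4.69, 5.22 and 5.36 in vehicle cells (1.27, adjusted p = 4.25e-07).

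Genes known from other cells to be induced by retinoic acid rose in 16 of 24 cases and none fell, beside 5.50% of all genes called higher, with 14 of 24 without vehicle replicate 2. PLAAT4, a phospholipase and acyltransferase also called RARRES3, had 8.55, 8.68 and 8.68 in tamibarotene cells and 4.04, 4.11 and 4.09 in vehicle cells (23.6-fold, adjusted p = 5.07e-21). The leucine-rich glycoprotein LRG1 had 11.29, 11.47 and 11.48 in tamibarotene cells and 7.36, 7.41 and 7.32 in vehicle cells (16.6-fold, adjusted p = 3.82e-19). Both sets of tamibarotene values were tight and lay above every vehicle value. The other PLAAT4 probe sets changed by 4.34 and -0.08, the latter with means of 2.97 in tamibarotene cells and 3.05 in vehicle cells. CD38, a NAD-consuming surface enzyme and a classic retinoic acid target of myeloid cells, had 11.19, 11.13 and 11.24 in tamibarotene cells and 8.46, 8.45 and 8.23 in vehicle cells (2.81, SE 0.12, adjusted p = 3.87e-17). The fructose transporter SLC2A5 changed by 2.82 and the helix-loop-helix inhibitor ID1 by 1.76. The list was made with earlier results of these data known, so its count is no independent evidence of its direction. Members that did not pass included the granulocyte factor CEBPE (0.00) and TNFSF10, which encodes the death ligand TRAIL (-0.30). ITGAX, the CD11c integrin, was at -0.02 by the probe set that stood for it and at 1.14 by another (limma adjusted p = 2.01e-06 over probe sets).

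The remaining largest rises were of mixed function. CLIC3, a chloride intracellular channel protein, had 9.97, 10.01 and 9.94 in tamibarotene cells and 3.94, 3.84 and 3.72 in vehicle cells (70.5-fold, adjusted p = 3.41e-25). The G protein subunit GNG2 had 9.95, 9.81 and 10.21 in tamibarotene cells and 5.54, 5.16 and 5.68 in vehicle cells (23.1-fold, adjusted p = 3.96e-15). In both genes the groups were far apart by the probe set that stood for them, and the other GNG2 probe sets changed by 2.98 and 1.12. CD1D, which presents lipid antigens to T cells, had 12.95, 13.05 and 12.98 in tamibarotene cells and 9.47, 9.48 and 9.40 in vehicle cells and was high in both groups. The membrane adaptor SCIMP changed by 3.81, SEL1L3 by 3.80, the rhomboid family member RHBDL3 by 3.36, the sugar mutarotase GALM by 3.35, the actin-organizing formin FMNL2 by 3.33 and the receptor tyrosine kinase ligand ALKAL1 by 3.32. Each of these was called, with no overlap between the groups. A second FMNL2 probe set changed by 1.16.

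Genes of the myeloid granules moved in both directions. Of 12 primary granule proteins 4 rose and 1 fell (33.3% and 8.33%), and of 18 secondary and tertiary granule proteins 5 rose and 3 fell (27.8% and 16.7%). Over all genes, 5.50% were called higher and 6.36% lower. The elastase inhibitor SERPINB1 (0.51), the granule proteoglycan SRGN (0.57), the bactericidal protein BPI (0.99) and AZU1 (0.49) rose. AZU1, which encodes azurocidin, lost its call under 6 of 14 alternatives. Cystatin F, encoded by CST7, had 4.63, 4.72 and 4.42 in tamibarotene cells and 6.41, 6.90 and 6.47 in vehicle cells (-2.01, adjusted p = 1.10e-13). The proteases ELANE, PRTN3 and CTSG and the peroxidase MPO did not pass, with changes of -0.17, 0.01, -0.24 and -0.15. MPO lay at 4.90 ± 0.19 in tamibarotene cells and 5.05 ± 0.13 in vehicle cells (SD, n = 3 each), near the array median, and the lysozyme gene LYZ at 11.48 ± 0.09 and 12.18 ± 0.04, in the same order (limma adjusted p = 0.175). LYZ passed under 2 of 14 alternatives, and its change lay between -0.77 and -0.66 under all 14. In the later granules, the chitinase-like protein CHI3L1 had 10.49, 10.56 and 10.45 in tamibarotene cells and 8.13, 8.20 and 7.91 in vehicle cells (2.42, adjusted p = 1.66e-12). LRG1, given above, had the largest rise of the later granule list (4.05), and haptoglobin, HP, also rose (0.99). The vitamin B12 carrier TCN1 changed by -1.43 and the gelatinase MMP9 by -0.92. The oxidative burst list had 2 of 8 members higher, the NADPH oxidase subunit CYBA (0.27) and the kinase PRKCB (0.92). The genes that mark mature granules, LTF, LCN2 and CAMP, lay at 0.06, 0.06 and -0.13 and did not pass.

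Among the S100 calcium-binding proteins 7 of 14 fell and none rose, beside 6.36% of all genes called lower, with the same counts without vehicle replicate 2. S100A8, a subunit of calprotectin, had 7.74, 7.91 and 7.79 in tamibarotene cells and 10.92, 10.90 and 10.94 in vehicle cells. It had the largest fall of any called gene, -3.11 on the log2 scale (SE 0.11, adjusted p = 3.76e-19). Its partner S100A9 had 9.70, 9.79 and 9.84 in tamibarotene cells and 10.62, 10.58 and 10.59 in vehicle cells (-0.82, adjusted p = 4.08e-08). S100A4, S100A12, S100A16 and S100P changed by -0.63, -0.73, -0.75 and -0.86. S100P lost its call under 1 of 14 alternatives.

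Of 15 monocyte and macrophage markers 5 fell and none rose, beside 6.36% of all genes called lower, and the other 10 did not pass. CD14, the coreceptor for lipopolysaccharide, had 4.38, 4.46 and 4.24 in tamibarotene cells and 5.70, 6.53 and 5.70 in vehicle cells (-1.62, SE 0.22, adjusted p = 1.70e-06). The groups were apart, and vehicle replicate 2 was higher than the other vehicle arrays. CX3CR1, the fractalkine receptor, changed by -0.85, the scavenger receptors CD163 and MARCO by -0.72 and -0.43, and MS4A7 by -0.74. MARCO lost its call under 5 of 13 alternatives. The growth factor receptor CSF1R (0.37) and CD68 (0.18) did not pass. The part of these markers' shift in the S100 result was not tested. The mean level of the 15 markers was 5.06 to 5.07 on tamibarotene arrays and 5.41 to 5.45 on vehicle arrays. None of 9 eosinophil, basophil and mast cell markers, 0 of 14 markers of adherent cells and 1 of 15 lymphoid markers (NCAM1, -0.56) was called, 1 of 11 erythroid and megakaryocyte markers fell (PPBP), and the 14 adherent cell markers had a mean level of 3.84 to 3.88 on tamibarotene arrays and 3.79 to 3.85 on vehicle arrays.

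Integrins and adhesion molecules rose in 9 of 19 cases and fell in 1, beside 5.50% of all genes called higher and 6.36% called lower, and 7 of 19 rose without vehicle replicate 2. ITGAM, the CD11b chain of the myeloid integrin Mac-1, had 5.95, 5.88 and 5.49 in tamibarotene cells and 4.64, 4.55 and 4.10 in vehicle cells (1.34, adjusted p = 8.96e-07). ITGAL, the CD11a chain of LFA-1, had 9.86, 9.84 and 9.71 in tamibarotene cells and 8.25, 8.22 and 7.91 in vehicle cells (1.67, adjusted p = 3.61e-08). ITGB7, a beta chain of gut-homing integrins, changed by 2.13, ITGA6 by 2.36 and the tetraspanin CD53 by 1.04. SELPLG, the P-selectin ligand, was the member that fell (-1.26, adjusted p = 2.15e-08). Of 24 chemotactic, cytokine and Fc receptors 5 rose and 3 fell. The leukotriene B4 receptor LTB4R had 8.81, 8.99 and 8.85 in tamibarotene cells and 7.29, 7.19 and 7.07 in vehicle cells, and the chemokine receptors CCR1, CCR2 and CXCR2 changed by 1.51, 1.34 and 0.59. The high-affinity IgG receptor FCGR1A, which interferon gamma and monocyte differentiation are known to raise, had 7.88, 8.05 and 7.98 in tamibarotene cells and 9.50, 9.63 and 9.53 in vehicle cells (-1.58, adjusted p = 4.35e-11). FGR, a myeloid Src family kinase, had 9.08, 9.22 and 9.20 in tamibarotene cells and 5.82, 5.98 and 5.71 in vehicle cells, a 10.1-fold rise (adjusted p = 3.34e-19). It was the 1 called gene of 12 kinases of that list, whose other members lay between -0.33 (SYK) and 0.38 (YES1). A second FGR probe set changed by 0.54.

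Of 19 members of the prostaglandin and leukotriene pathway 6 rose and 2 fell (31.6% and 10.5%, beside 5.50% and 6.36% of all genes). PTGS1, cyclooxygenase 1, had 11.65, 11.61 and 11.64 in tamibarotene cells and 7.81, 7.92 and 7.58 in vehicle cells (14.6-fold, adjusted p = 1.57e-21), with log2 changes of 3.68 to 3.99 over its 4 probe sets. The leukotriene-synthesis helper ALOX5AP had 11.98, 11.96 and 12.04 in tamibarotene cells and 10.10, 10.12 and 10.03 in vehicle cells (1.91, adjusted p = 4.76e-12). LTA4H, which makes leukotriene B4, changed by 0.60. The leukotriene C4 synthase LTC4S (-0.81) and the prostaglandin E2 receptor PTGER4 (-1.49) fell, while the inducible cyclooxygenase PTGS2 did not pass (-0.31).

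Of 19 genes of MHC class I antigen presentation 12 rose and none fell (11 and 0 without vehicle replicate 2), with a list median of 0.42. The 12 genes are 63.2%, beside 5.50% of all genes called higher. HLA-F had 8.36, 8.51 and 8.42 in tamibarotene cells and 6.57, 6.66 and 6.28 in vehicle cells (1.93, adjusted p = 2.22e-12). The immunoproteasome subunit PSMB9 had 11.18, 11.21 and 11.21 in tamibarotene cells and 10.10, 10.16 and 10.10 in vehicle cells (1.08, adjusted p = 6.02e-11). HLA-B and HLA-C, highly similar genes whose probes may share signal, changed by 0.51 and 0.74, the immunoproteasome subunit PSMB10 by 0.72, the proteasome activator PSME1 by 0.52 and the light chain B2M by 0.33. In MHC class II presentation, HLA-DRA and CD74 lay at 0.11 and -0.10 and did not pass. Of 17 members 2 rose (11.8%) and 1 fell (5.88%, near the 6.36% of all genes), all of them lysosomal enzymes (IFI30, CTSS and CTSH). Of 44 interferon-stimulated genes 11 rose (25%, beside 5.50% of all genes) and none fell (10 rose without vehicle replicate 2). IRF1, a factor that both interferon and retinoic acid induce, had 10.56, 10.61 and 10.53 in tamibarotene cells and 8.78, 8.88 and 8.68 in vehicle cells (1.79, adjusted p = 6.15e-16). The guanylate-binding protein GBP4 changed by 2.51, IFI6 by 2.10 and IFITM3 by 1.13, whereas the antiviral effectors MX1, RSAD2 and IFIT2 lay at 0.35, 0.29 and 0.31 and did not pass.

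Of 21 genes of the TNF, interleukin-1 and NF-kappaB group 5 rose and 5 fell, with a median change of -0.15. Changes were negative for 16 of the 21, while over all genes 43.4% of changes were positive. TNF had 8.21, 8.08 and 8.12 in tamibarotene cells and 9.59, 9.72 and 9.53 in vehicle cells (-1.47, adjusted p = 1.94e-05). Interleukin-1 beta, IL1B, had 7.58, 7.57 and 7.65 in tamibarotene cells and 8.47, 8.71 and 8.34 in vehicle cells (-0.90, adjusted p = 7.56e-06), and its receptor antagonist IL1RN changed by -1.16. The chemokines CCL5 and CCL2 changed by 1.03 and 0.79 and the dendritic cell marker CD83 by 1.20. CXCL1, a neutrophil-attracting chemokine, did not pass by the probe set that stood for it (-0.41) and fell by another (-1.20, limma adjusted p = 4.06e-08 over probe sets). Without vehicle replicate 2, 4 of 21 were higher and 4 lower.

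Of 42 ribosome biogenesis and nucleolar genes 30 fell and none rose (25 and 0 without vehicle replicate 2), with a list median of -0.51, while none of 24 ribosomal protein genes passed. The 30 genes are 71.4%, beside 6.36% of all genes called lower. The nucleolar proteins NOP56 and FBL, which guide RNA methylation, had 11.49, 11.44 and 11.41 and 12.17, 12.15 and 12.13 in tamibarotene cells. In vehicle cells they had 12.06, 12.06 and 12.05 and 12.60, 12.58 and 12.56. These falls, -0.61 and -0.43 on the log2 scale, were small and without overlap between the groups (adjusted p = 8.63e-08 and 2.88e-06). The ribosome assembly factors BOP1, MRTO4, TSR1 and PPAN changed by -0.69, -0.71, -0.75 and -0.68. NPM1, the gene mutated in this line, did not pass by the probe set that stood for it (-0.11, SE 0.091, adjusted p = 0.613). All 6 NPM1 probe sets had a negative change, and 1 of them passed (-0.56, limma adjusted p = 0.00735 over probe sets). In purine, pyrimidine and one-carbon synthesis 15 of 22 genes fell (68.2%) and none rose (14 fell without vehicle replicate 2). The mitochondrial folate enzyme MTHFD1L had 9.18, 9.10 and 9.14 in tamibarotene cells and 9.96, 9.99 and 9.87 in vehicle cells (-0.80, adjusted p = 5.10e-07). The CTP synthase CTPS1, the UMP synthase UMPS, the purine enzyme PAICS and DHODH, the pyrimidine enzyme of the mitochondrion, changed by -0.54, -0.53, -0.71 and -0.55. Thymidylate synthase, TYMS, did not pass (adjusted p = 0.999).

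**Figure D2:**
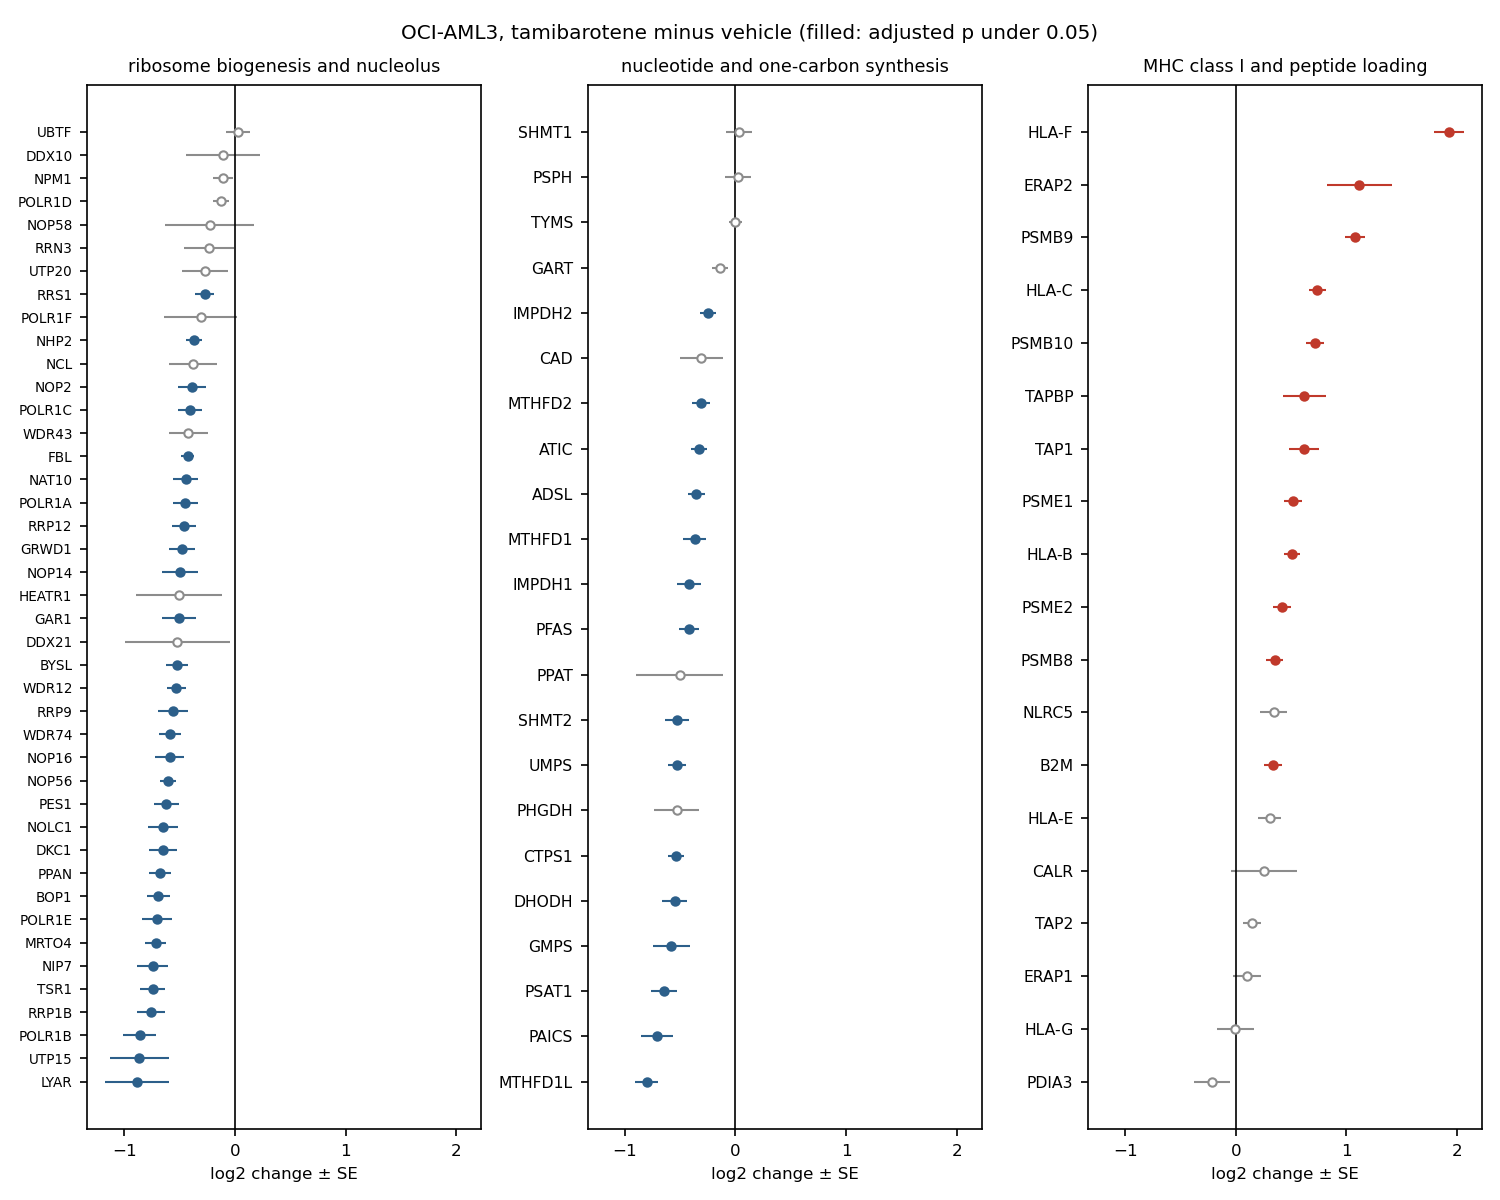
Log2 change in OCI-AML3, tamibarotene minus vehicle, with its SE, for every measured member of 3 gene lists; filled points passed an adjusted p of 0.05. Of the ribosome biogenesis genes 30 of 42 fell, of the nucleotide and one-carbon genes 15 of 22 fell, and of the MHC class I genes 12 of 19 rose.

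MYC, a transcription factor known to drive both of these groups of genes, had 11.28, 11.19 and 11.24 in tamibarotene cells and 11.92, 11.92 and 11.85 in vehicle cells and changed by -0.66 (SE 0.10, adjusted p = 1.61e-05). Of 22 genes of the MYC network and polyamine synthesis 4 fell and 1 rose, and 2 rose without vehicle replicate 2. The polyamine enzymes ODC1 and SRM changed by -0.51 and -0.59. SMOX, which oxidizes the polyamine spermine, had 9.80, 9.86 and 9.66 in tamibarotene cells and 7.37, 7.51 and 7.25 in vehicle cells and rose 5.27-fold (adjusted p = 5.23e-13). Of 15 tRNA synthetases 5 fell and 1 rose. The one that rose, WARS1, is also known as an interferon-induced gene and had 12.13, 12.12 and 12.24 in tamibarotene cells and 11.04, 11.10 and 10.97 in vehicle cells (1.13, adjusted p = 1.17e-12). Of 28 genes for amino acid supply and ER stress 7 fell and 1 rose (2 without vehicle replicate 2), with the amino acid transporter chains SLC7A5 and SLC3A2 at -1.10 and -0.65 and the asparagine synthetase ASNS at -0.72. Of 38 replication genes 4 fell, CDC45, RFC3, ORC1 and GINS2 (-0.39, -0.59, -0.32 and -0.36), and of 34 mitosis genes 1 fell, CDC20 (-0.37). No member of either list rose, and the shares called lower stood beside 6.36% of all genes. GINS2 lost its call under 2 of 14 alternatives and CDC20 under 1 of 14.

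Of the inhibitors of cell division, CDKN1A, which encodes p21, had 10.23, 10.33 and 10.03 in tamibarotene cells and 9.03, 9.07 and 8.93 in vehicle cells (1.19, SE 0.13, adjusted p = 1.93e-08), and CDKN2D and BTG1 changed by 0.76 and 0.58. Of the 18 members of that list 3 rose and 3 fell, with 3 rises and 1 fall without vehicle replicate 2. CDKN2A was lower (-0.75, adjusted p = 3.75e-04), lost its call under 1 of 14 alternatives (adjusted p = 0.113) and had 2 other probe sets at -0.39 and -0.37 that did not pass. Of 31 genes of the p53 list 5 rose and 1 fell (6 and 0 without vehicle replicate 2). The shares were 16.1% and 3.23%, beside 5.50% and 6.36% of all genes. TP53I3, a quinone oxidoreductase named for its induction by p53, had 10.11, 10.11 and 10.18 in tamibarotene cells and 7.02, 7.05 and 6.84 in vehicle cells (8.96-fold, adjusted p = 1.39e-13). TP53INP1 changed by 1.27 by the probe set that stood for it and by 0.06 by another, which did not pass. MDM2, the ubiquitin ligase of p53 and itself a p53 target, was at 0.54 (adjusted p = 0.404), with XPC at 0.23 and GADD45A at 0.22, and did not pass.

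In the BCL2 family 1 of 6 survival members rose and 1 fell, and 3 of 15 death-promoting members rose and 1 fell. Over all genes, 5.50% were called higher and 6.36% lower, so the 1 fall of 15 (6.67%) is near that share. BCL2, the survival protein that venetoclax blocks, averaged 5.48 ± 0.25 in tamibarotene cells and 7.35 ± 0.31 in vehicle cells (SD, n = 3 each) without overlap, and by limma changed by -1.87 (SE 0.29, adjusted p = 2.00e-05). All 6 BCL2 probe sets had a negative change, between -1.97 and -0.28. MCL1, another survival protein, had 10.65, 10.26 and 10.43 in tamibarotene cells and 10.46, 10.25 and 10.53 in vehicle cells, which overlap (0.03, adjusted p = 0.974), and BCL2L1 did not pass either (adjusted p = 0.999). The survival member that rose was BCL2A1 (0.88), and the death-promoting member that fell was BNIP3 (-0.61). The death-promoting member BIK had 9.21, 9.27 and 9.13 in tamibarotene cells and 6.04, 6.82 and 6.44 in vehicle cells (6.83-fold, adjusted p = 3.19e-16). BMF, of the same kind, changed by 0.82 and lost its call under 1 of 14 alternatives. The other BMF probe sets lay between -0.01 and 0.05 and did not pass. Of 24 caspases, death receptors and their inhibitors 6 rose (25%) and none fell (5 and 0 without vehicle replicate 2). RIPK3, the kinase of necroptosis, had 7.52, 7.87 and 7.70 in tamibarotene cells and 6.35, 6.35 and 6.05 in vehicle cells (1.45, adjusted p = 3.53e-06), and CASP4, CASP8 and CASP9 changed by 0.48, 0.43 and 0.59. CASP8 lost its call under 1 of 14 alternatives, and its other probe sets, between -0.07 and 0.50, did not pass. The inhibitors XIAP and CFLAR rose as well, by 0.84 and 0.33. CFLAR, 1 of the 4 genes with the promoter repeat, lost its call under 4 of 14 alternatives. XIAP had 7.34, 7.19 and 7.34 in tamibarotene cells and 6.79, 5.90 and 6.65 in vehicle cells, with vehicle replicate 2 the lowest, and it lost its call without that array (0.57, adjusted p = 0.203).

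MEIS1, the partner of HOX proteins in this leukemia type, had 6.65, 6.22 and 6.23 in tamibarotene cells and 6.04, 6.12 and 5.97 in vehicle cells and did not pass (0.32, adjusted p = 0.153), and PBX3 lay at -0.10. DNMT3A had 7.68, 7.70 and 7.65 in tamibarotene cells and 7.33, 7.60 and 7.34 in vehicle cells (0.25, adjusted p = 0.152). Of 11 measured HOX, MEIS1 and PBX3 genes HOXB6 and HOXB7 fell (-0.97 and -0.53) and HOXB2 rose (0.51), and 1 of the 2 falls was called without vehicle replicate 2. HOXB7 lost its call under 4 of 13 alternatives and HOXB2 under 2 of 14. HOXB3 did not pass by the probe set that stood for it (0.35), while its other 3 probe sets were called higher (1.01, 0.79 and 0.38). FLT3, the receptor tyrosine kinase of progenitors and a drug target in AML, had 8.38, 8.19 and 8.49 in tamibarotene cells and 6.43, 5.92 and 6.66 in vehicle cells, a 4.03-fold rise (SE of the log2 change 0.28, adjusted p = 2.27e-06). Of 18 progenitor antigens 2 rose and 1 fell (11.1% and 5.56%, beside 5.50% and 6.36% of all genes). CD244 changed by 1.47 and SOCS2, an inhibitor of cytokine signalling, by -0.98. Of 36 hematopoietic transcription factors 4 rose (11.1%) and 7 fell (19.4%), with 3 rises and 6 falls without vehicle replicate 2. HLX changed by 1.28, KLF4, a factor linked to monocytes, by -1.33 and IRF5 by -0.61, while CEBPA and SPI1, which define the myeloid lineage, were at 0.27 and -0.18 and did not pass.

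Of 20 lipid-handling genes 7 rose and 2 fell (35% and 10%, beside 5.50% and 6.36% of all genes). The scavenger receptor CD36 had 7.99, 7.77 and 8.15 in tamibarotene cells and 6.77, 5.49 and 6.62 in vehicle cells (1.68, adjusted p = 3.62e-05), with vehicle replicate 2 again the lowest. The apolipoprotein APOC1 changed by 1.05 and the lipid droplet coat protein PLIN2 by 0.61. Of 21 genes for cholesterol and fatty acid synthesis 5 rose and none fell, with SQLE at 0.69 and INSIG1 at 0.53. Of 26 genes for sugar transport and glycolysis 7 rose (26.9%) and 4 fell (15.4%), with 7 rises and 3 falls without vehicle replicate 2. SLC2A5 had 12.72, 12.76 and 12.59 in tamibarotene cells and 9.92, 9.98 and 9.70 in vehicle cells (7.07-fold, adjusted p = 3.34e-17). FBP1, an enzyme of glucose synthesis, had 10.70, 10.87 and 10.85 in tamibarotene cells and 8.93, 9.08 and 8.91 in vehicle cells, and PFKFB4 changed by 1.93. The myeloid hexokinase HK3 rose by 0.99, and the phosphofructokinase PFKM was lower (-1.06). Of 16 heme and iron genes 6 rose (37.5%) and 2 fell (12.5%), and 5 rose and none fell without vehicle replicate 2. The heme-making enzymes ALAS1 and ALAD changed by 0.79 and 0.82. Of 26 enzymes of DNA methylation and histone marks 2 rose and 2 fell (7.69% each), near the 5.50% and 6.36% of all genes, with the isocitrate dehydrogenase IDH1 at 0.51. Of 13 reference genes 2 rose and 1 fell, with B2M at 0.33, the lysosomal enzyme GUSB at 1.04 and HPRT1 at -0.43.

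**Figure D3:**
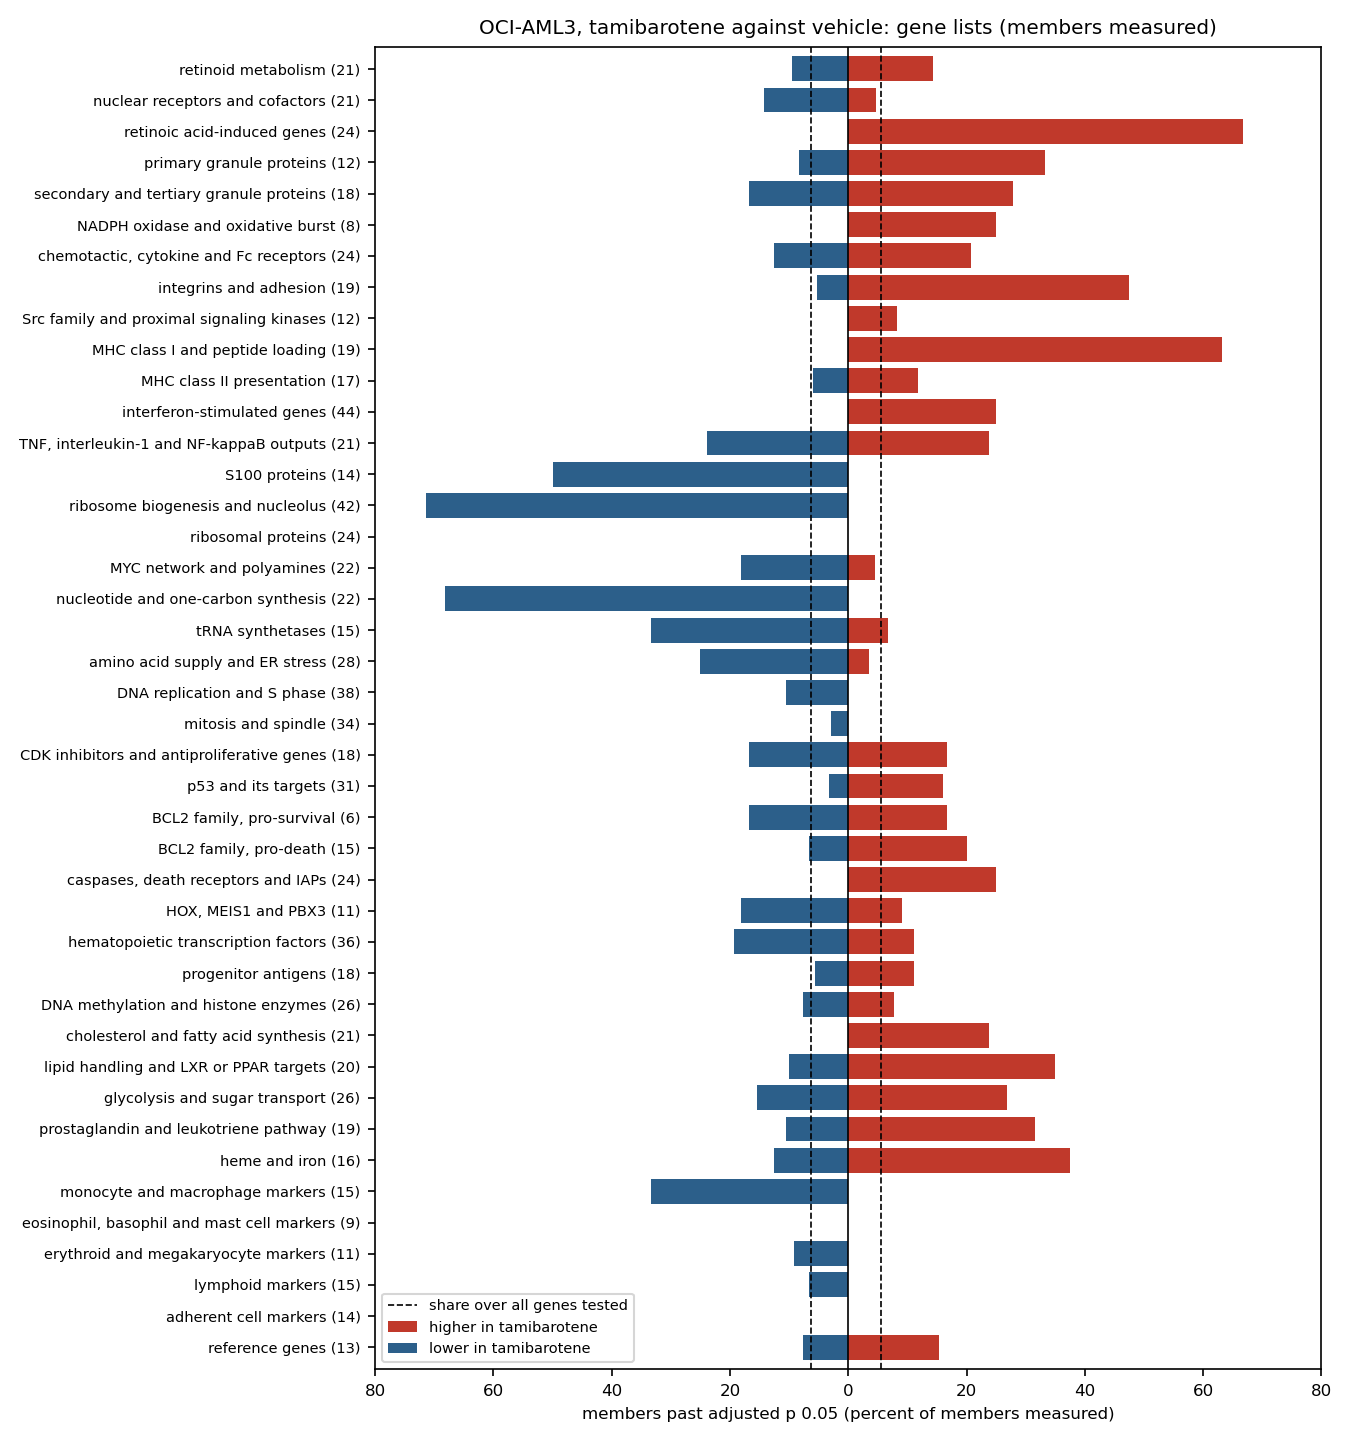
Share of measured members, in percent, of each of 42 gene lists that were higher (right) or lower (left) in OCI-AML3 tamibarotene cells at an adjusted p under 0.05, with the number measured in brackets. Dashed lines mark the shares over all genes tested, 5.50% higher and 6.36% lower.

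The largest falls besides those above were spread over signalling and secreted proteins. GSAP, which activates gamma-secretase, had 4.64, 4.51 and 4.77 in tamibarotene cells and 6.92, 6.77 and 6.76 in vehicle cells (-2.17, adjusted p = 8.64e-10). Galectin-3, LGALS3, had 6.48, 6.24 and 6.42 in tamibarotene cells and 8.57, 8.63 and 8.23 in vehicle cells (-2.10, adjusted p = 3.29e-13). CDA, the cytidine deaminase that inactivates cytarabine, had 6.52, 6.47 and 6.23 in tamibarotene cells and 8.17, 8.28 and 8.31 in vehicle cells (-1.85, SE 0.17, adjusted p = 1.61e-09). In each of these genes the groups did not overlap. The growth factor PDGFA changed by -2.08, the platelet chemokine PPBP by -2.07, the potassium channel KCNN4 by -2.05, the sphingosine phosphate receptor S1PR3 by -1.76, RGCC by -1.74, the matrix protein TGFBI by -1.73, the dystrobrevin DTNA by -1.73 and TNFAIP8 by -1.71. The 10 DTNA probe sets ran from -1.93 to -0.02. PID1 and GPR84, a receptor for medium-chain fatty acids, changed by -1.58 and -1.23. For 2 genes of all those tested, AOPEP and SYTL1, called probe sets had opposite signs. Of 10231 uncalled genes with more than 1 probe set, 409 had another probe set that was called, 42 of them by at least 1 on the log2 scale.

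The second comparison asked where OCI-AML3 responded differently from the other AML lines. The OCI-AML3 change was set against the unweighted mean change of the other 6 lines, each against its own vehicle arrays, in the same limma fit. It differed for 1419 genes (7.83%). Of these 1216 were called in OCI-AML3 itself, 632 of them rising more, 581 falling more and 3 rising less than in the other lines. Of the 997 genes that rose in OCI-AML3, 365 were called higher in none of the other 6 lines and 4 in all 6. The number called differed widely between those lines, between 197 and 4874 genes, and these counts also depend on those numbers. Without vehicle replicate 2 of OCI-AML3, 1213 genes differed, 732 with a positive difference and 481 with a negative one, against 753 and 666 with all arrays. The 3' minus 5' difference of beta-actin reached 1.89 and 0.81 on 2 Sig-M5 vehicle arrays and 1.18 on a Kasumi-1 vehicle array. Without these 2 lines 1366 genes differed, and the balance turned to 626 positive and 740 negative differences.

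Each of the 15 largest rises was larger in OCI-AML3 than the mean of the other lines, by a test that uses the same OCI-AML3 values as the ranking. CLIC3 rose by 3.98 more than the mean of the others (SE 0.14, adjusted p = 1.13e-18), CYP26A1 by 3.92 more (SE 0.16, adjusted p = 3.42e-17) and DHRS3 by 3.00 more (SE 0.18, adjusted p = 2.70e-13). DHRS3 changed by 6.86 in MV-4-11 and CYP26A1 by 7.10 in OCI-M1, both above OCI-AML3, so these differences are from the mean and not from every line. The CYP26A1 values of the remaining lines were 3.78 in MV-4-11, 0.58 in NOMO-1, -0.23 in Sig-M5, 0.66 in KG-1a and 0.38 in Kasumi-1. TP53I3, FMNL2 and BIK rose in OCI-AML3 with a mean change of the others of 0.05, 0.13 and 0.09 (adjusted p of the difference 4.37e-12, 3.50e-10 and 1.76e-14). Single lines lay away from these means: TP53I3 changed by 1.27 in MV-4-11, FMNL2 by 1.11 in NOMO-1 and BIK by 0.48 in Sig-M5, each called there. The rising CYP26B1 probe set changed by 3.40 in OCI-AML3 and by 1.14 at most in the others, and the rising RARB probe set with the higher level by 1.64 and by 0.55 at most. Their differences were 3.13 (limma adjusted p = 3.50e-16 over probe sets) and 1.43 (limma adjusted p = 6.62e-08 over probe sets).

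The falls of S100A8, CDA and CD14 were also larger in OCI-AML3. The mean change of the other lines for these genes was -0.37, -0.04 and -0.06, and the differences were -2.74, -1.81 and -1.56 (adjusted p = 3.39e-16, 3.25e-08 and 2.67e-05). RGCC fell in OCI-AML3 and had a mean change of 0.42 in the others (difference -2.16, adjusted p = 1.31e-10). BCL2 fell by 1.40 more than the mean of the others (SE 0.32, adjusted p = 0.00394), and MYC by 0.83 more (SE 0.11, adjusted p = 3.25e-06). The 3 genes that rose less in OCI-AML3 were the myeloid surface markers CD38 and ITGAM and the acyl-CoA synthetase gene ACSL5, which was named after its values were seen and rose by 0.29 against 0.66 in the others. CD38 rose by 2.81 in OCI-AML3 against a mean of 3.66 in the others (difference -0.85, SE 0.14, adjusted p = 4.85e-05), and ITGAM by 1.34 against 2.07 (difference -0.73, adjusted p = 0.0131). ID1 and SLC2A5 did not pass in this comparison, with differences of -0.01 (SE 0.12) and 0.31 (SE 0.13).

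**Figure D4:**
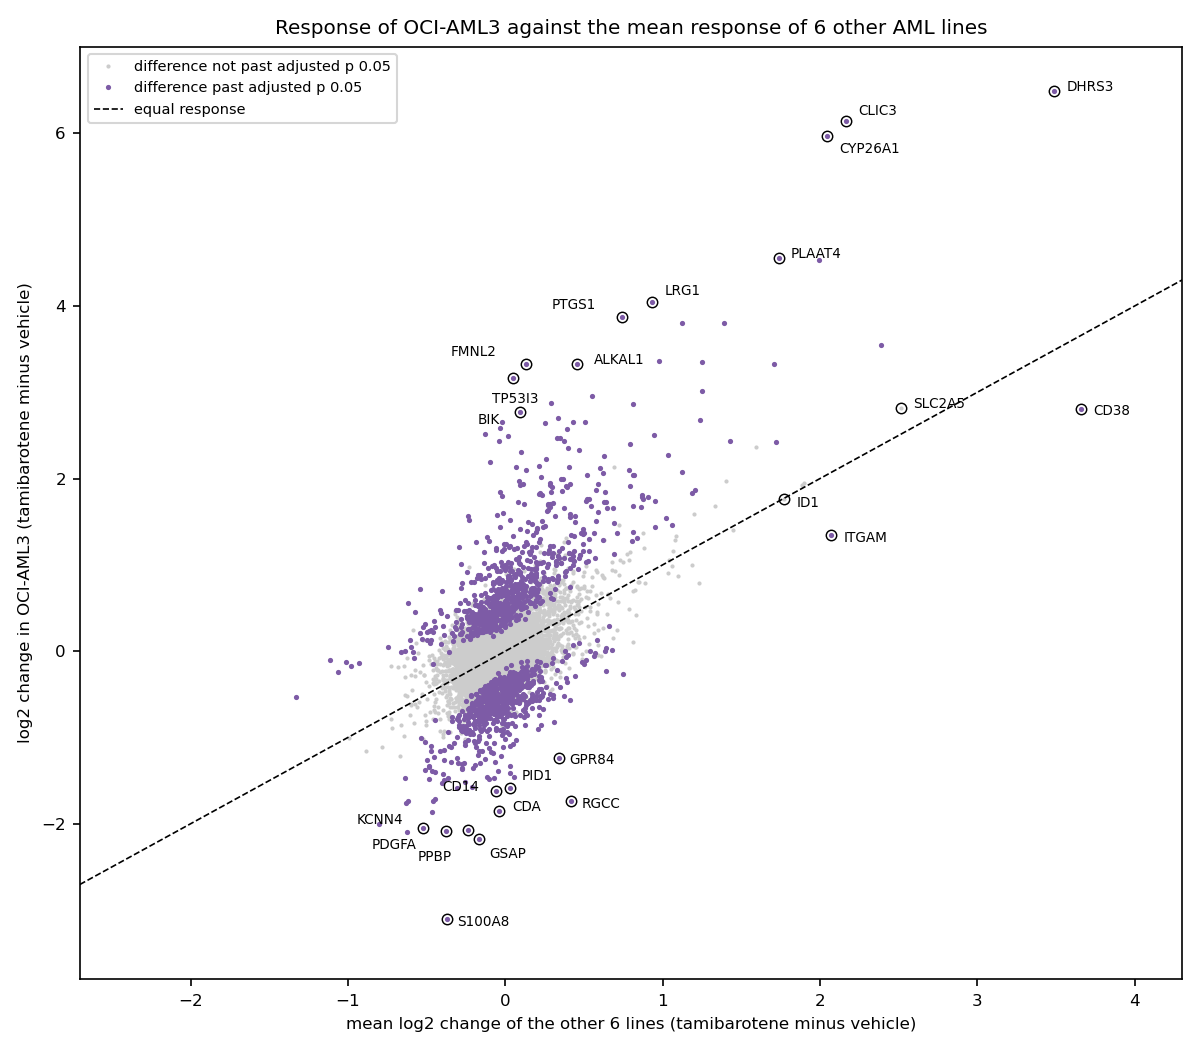
Log2 change of each of 18132 genes in OCI-AML3 (vertical axis) against the mean log2 change of the other 6 lines (horizontal axis), with the 1419 genes whose difference passed an adjusted p of 0.05 in purple and an equal response as the dashed line. CYP26A1, CLIC3 and DHRS3 lie far above the line, CD38 and ITGAM below it, and S100A8 lies at the lower edge.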

How the data were processed

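RNA from 7 AML lines was measured on Affymetrix PrimeView arrays after 24 h with tamibarotene or DMSO. The deposited values are log2 intensities that the authors computed by RMA (affy), per the submitters' processing notes. Versions and joint normalization of the arrays are not given in the sources used here. Array number limits the precision, and no detection calls were used. Gene symbols come from the platform annotation. The probe set with the highest mean over 39 arrays stood for a gene. All 39 arrays were fitted with limma 3.58.1 (R 4.3.3) as 14 groups with 25 residual degrees of freedom, which share 1 estimate of spread, and tested for OCI-AML3 tamibarotene minus vehicle and for that change minus the mean of the other 6 lines, with Benjamini-Hochberg adjustment over 18132 genes. The fit was tested on simulated data. Named genes were the 15 largest rises and falls with separate groups, up to 6 called members of each list, the 10 largest differences at each end, 20 genes fixed by name, and genes with opposed probe sets; uncalled members were added to describe lists. The members, lists and rules were chosen with earlier results of these data known. Some listed genes were not analysed here. Alternatives covered quantile normalization, the summary of probe sets, a filter on dim genes, array weights, trended variance, replicate number as a block, left-out arrays, OCI-AML3 arrays alone and fewer other lines.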

Additional observations from a re-analysis of the deposited data

Results flagged for a closer look

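The response of OCI-AML3 differed from the mean response of the other 6 lines by the test of the difference itself (limma, adjusted p under 0.05) for the genes below, each given as the log2 difference. The larger rises were those of CLIC3 (3.98), CYP26A1 (3.92), FMNL2 (3.20), PTGS1 (3.13), LRG1 (3.12), TP53I3 (3.11), DHRS3 (3.00), ALKAL1 (2.87), PLAAT4 (2.83) and BIK (2.68). The larger falls were those of S100A8 (-2.74), RGCC (-2.16), GSAP (-2.01), PPBP (-1.83), CDA (-1.81), PDGFA (-1.70), PID1 (-1.61), GPR84 (-1.57), CD14 (-1.56) and KCNN4 (-1.53). CD38 (-0.85), ITGAM (-0.73) and ACSL5 (-0.37) rose less in OCI-AML3 than the mean of the others. By single probe sets, the CYP26B1 probe set that rose differed by 3.13, and the RARB probe sets that rose differed by 1.43 and 1.31. These genes were ranked on the same values, so the sizes of the differences are the largest ones found and not independent estimates.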

How the results depend on the processing

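Of 197 named genes that were called, 170 kept their call and direction under every alternative run, and 27 lost the call under at least 1. Array weights raised the called genes to 5639 and the genes differing from the other lines to 4294, with a weight estimation that stopped before it converged. With every single-symbol probe set tested, 4071 probe sets were called and 2688 differed from the other lines, the latter chosen after seeing the data. With a fold of at least 2 required as well, 354 genes were left. The counts with 1 array left out ran from 1705 to 1855 genes called and from 1056 to 1213 genes differing, against 2150 and 1419. When probe sets were averaged per gene, 3 named genes called before or after averaging changed sign. RARB was then at 0.93, AOPEP at 0.00144 and SYTL1 at 0.0527. Sign turns of genes uncalled both ways were not counted. The replicate number as a block gave 2431 called genes and 1604 differing. Deviations of equally numbered arrays correlated by -0.04, 0.35 and 0.46, and those of unequally numbered arrays by -0.49 to 0.25. The labels name no pairs, so the main fit did not use the numbers as pairs. Whether equal numbers share a batch was not tested. The median SE of a change was 0.132, which with 3 arrays a group limits how small a change could be called, and folds of genes near the array background may be understated.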

Other observations

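Further gene groups were collected after their values had been seen, so their counts carry no test. They were counted with all arrays only. Of 51 measured lysosomal enzymes and membrane proteins 19 rose and 2 fell in OCI-AML3, with a median change of 0.27 beside -0.03 for all genes. The saposin precursor PSAP had 12.15, 12.16 and 12.16 in tamibarotene cells and 10.45, 10.49 and 10.34 in vehicle cells (1.73, limma adjusted p = 5.36e-18). The aspartic protease CTSD had 10.68, 10.80 and 10.63 in tamibarotene cells and 8.65, 8.89 and 8.73 in vehicle cells (1.95, limma adjusted p = 5.83e-12). Both genes were high in all 6 arrays and higher with tamibarotene, without overlap. The fucosidase FUCA1 changed by 2.57, the lysosomal regulator TFEB by 0.59 and the protease CTSH by -0.93.

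Of 33 measured sensors of nucleic acids and bacteria 7 rose and 2 fell, beside 5.50% of all genes called higher and 6.36% called lower. STING1, the adaptor of cytosolic DNA sensing, had 10.45, 10.60 and 10.50 in tamibarotene cells and 8.80, 8.90 and 8.65 in vehicle cells (1.73, limma adjusted p = 3.06e-14). SAMHD1, which breaks down deoxynucleotides and is known to inactivate the active form of cytarabine, had 10.73, 10.42 and 10.54 in tamibarotene cells and 8.91, 8.63 and 8.93 in vehicle cells (1.74, limma adjusted p = 1.09e-07). In these cells SAMHD1 was higher while CDA, which also inactivates cytarabine, was lower. LY86, a partner of a toll-like receptor relative, changed by -1.48.

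Of 29 measured inhibitory and activating leukocyte receptors 6 rose and 1 fell, with TYROBP, an adaptor of activating receptors, at 1.27, LILRB2 at 2.43 and CD300A at 2.07. Among 9 aldo-keto reductases 4 rose and 1 fell. AKR1C3, AKR1C1 and AKR1C2 changed by 2.44, 1.93 and 1.14, and because these genes are nearly identical their probes may share signal.

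The matrix protein THBS1 was split between probe sets as RARB was. A THBS1 probe set gave 7.25, 7.07 and 7.33 in tamibarotene cells and 4.28, 4.81 and 3.98 in vehicle cells. Its change was 2.86 (limma adjusted p = 1.88e-14 over probe sets), whereas the probe set that stood for the gene was at 0.05. Of the remaining THBS1 probe sets, those at 1.75 and 1.05 were called (limma adjusted p = 1.29e-11 and 5.86e-05 over probe sets) and that at 0.04 was not. The probe set at 2.86 changed by between -0.315 and 5.13 in the other lines.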
